A study of Mus musculus with 55 samples.

Results

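The genes of the translation initiation factors (eIFs) and elongation factors (eEFs) were followed by RNA level in mouse epiblast stem cells (EpiSCs) and in tailbuds of embryos. Members were taken by symbol: every gene whose symbol begins with Eif1 to Eif6 or with Eef1 or Eef2, apart from Eif2s3x and Eif2s3y, which lie on the sex chromosomes, and from pseudogene symbols. This gave 60 genes among the 16439 listed in either table, of which 60 were in the EpiSC table (15807 genes) and 58 in the tailbud table (14602 genes). Eif1ax, which lies on the X chromosome, stayed among them. After the filter on low counts, 55 of the 60 were tested in EpiSCs and 51 of the 58 in tailbuds. The untested members were Eif2ak3, Eif3j1, Eif3j2, Eif4e3 and Eef1a2 in EpiSCs and Eif2ak2, Eif2ak3, Eif2ak4, Eif3j2, Eif4e3, Eif5a2 and Eef2k in tailbuds.

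A cap-dependent round of translation starts when eIF4E binds the mRNA cap and joins the scaffold eIF4G and the helicase eIF4A. The eIF3 complex and the small ribosomal subunit, loaded with initiator tRNA by eIF2, are then brought to the message, and eIF1, eIF1A and eIF5 guide scanning and start codon choice. eIF2 works with bound GTP, which its exchange factor eIF2B restores, and 4 kinases that phosphorylate eIF2 block that exchange under stress, a pathway called the integrated stress response. During elongation eEF1A brings in aminoacyl-tRNA, the eEF1B subunits recharge it, and eEF2 moves the ribosome along. The eIF4E-binding proteins hold eIF4E away from eIF4G unless the kinase mTOR phosphorylates them.

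RNA was measured by CEL-seq, which tags the 3′ end of transcripts, so a long gene does not collect more tags than a short one at the same number of transcripts. The EpiSC lines had been derived from pre-streak embryos, first on mouse embryonic fibroblasts and later without feeders, in medium with Fgf-basic, Activin A and 2 µM IWP2, an inhibitor of Wnt secretion. WT and Null EpiSCs at 0h were kept in IWP2; at 24h IWP2 had been withdrawn and 3 µM Chiron, a GSK3 inhibitor that activates Wnt signalling, and 120 ng/ml Fgf8 had been added. Each of these 4 groups held 2 libraries. No group was kept untreated for 24h, so Chiron with Fgf8, the loss of IWP2 and time in culture cannot be told apart. The culture text of the Null line speaks of embryos lacking Cdx genes and, in another sentence, of Wnt3 null EpiSCs, and the labels do not give the alleles. Tailbuds were microdissected from E8.0 embryos without treatment, with 3 libraries each labelled WT, Cdx1-4 and Triple, whose alleles are not spelled out either. Nothing says that replicates were separate cultures or embryos, so p-values measure only the spread between these libraries, which may be technical.

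EpiSC libraries held 1114055 to 2914870 counts and tailbud libraries 389601 to 854852. A floor of 3 counts equals 1.03 to 2.69 CPM (counts scaled to one common library total) in EpiSCs and 3.51 to 7.70 CPM in tailbuds, counting error only. The epiblast marker Pou5f1 was present in all EpiSC groups, at group means of 200 CPM in WT and 336 CPM in Null cells at 0h. Cdx4, at 43.5 CPM in WT tailbuds, stood at 0.461 CPM in Cdx1-4 and at 0 in Triple tailbuds, while Cdx2 was 212 CPM in WT, 206 CPM in Cdx1-4 and 100 CPM in Triple. In EpiSCs Cdx2 was 21.8 CPM in WT and 11.6 CPM in Null cells at 24h, and these 3′ tags do not show whether a transcript was intact. In bulk RNA such as this, fewer cells of a type and less RNA per cell cannot be told apart.

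The 60 genes together took 3.48% and 3.49% of all counts in the WT libraries at 0h and 3.64% and 3.70% at 24h. In Null cells they took 3.61% and 3.62% at 0h and 3.71% and 3.79% at 24h. Tailbud libraries ranged from 3.07% to 3.33% in WT, from 3.14% to 3.28% in Cdx1-4 and from 2.91% to 3.07% in Triple. The mRNA of Eef1a1, the main carrier of aminoacyl-tRNA, made up 27.9% of the members' CPM in EpiSCs and 21.0% in tailbuds. Next in EpiSCs came Eef1b2, the exchange factor subunit that recharges eEF1A, with 10.3%, then Eif5a, a factor that relieves stalled ribosomes, with 9.04%, and Eif4g2, an eIF4G relative without a binding site for eIF4E, with 7.36%. In tailbuds Eif5a followed Eef1a1 with 11.2%, ahead of Eif4g2 with 7.87% and Eef1b2 with 7.37%. Levels were spread widely: 8 members averaged 1000 CPM or more in EpiSCs, 29 lay between 100 and 1000 CPM, 15 between 10 and 100 CPM, and 8 below 10 CPM.

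For 47 of the 60 members RefSeq's GRCm38.p6 promoter table held at least 1 start, with 250 bases before and 50 after it, 62 starts in all. Many mRNAs of the translation machinery are known to begin with a C followed by a run of C and T, through which mTOR controls their translation. The 30-base windows printed here hold 15 bases before the annotated start and 15 from it on, and capitals mark an unbroken run of C and T over that base. They show the 2 members called higher at 24h that hold a run of at least 5, Eef1a1 in the average of both lines alone, and 4 called higher that do not. A run counted here may begin before the annotated start and need not have a C at it. In Eef1a1 and Eif3l the annotated first base is a T.
Eef1a1 at chr9:78481710-78481739, minus strand: gctggctccgCCCTCTTCCCgagggtgggg
Eif3l at chr15:79075208-79075237, plus strand: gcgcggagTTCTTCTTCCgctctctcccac
Eef1b2 at chr1:63176816-63176845, plus strand: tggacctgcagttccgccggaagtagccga
Eef2 at chr10:81176616-81176645, plus strand: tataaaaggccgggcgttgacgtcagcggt
Eif4b at chr15:102073758-102073787, plus strand: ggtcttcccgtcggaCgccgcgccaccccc
Eif2b4 at chr5:31193125-31193154, minus strand: cgggacccagtgcacgccggaagttgtagt

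A run of at least 5 over the start occurred in 5 of the 47 members (Eef1a1, Eif2ak4, Eif2b5, Eif3f and Eif3l), or 10.6%, against 11.8% of all 27025 genes with an entry. Starts were taken from the annotation and not measured here, and a run could lie mostly before the start. These shares are thus not shares of mRNAs that begin with a C and such a run. The E-box CACGTG, the same on both strands and the preferred site of Myc with Max, was found in 12 of the 47 members, or 25.5%, against 8.09% of all genes with an entry and 11.1% of the 11521 that are listed in the EpiSC table. The 12 were Eef2, Eef2k, Eif1b, Eif3a, Eif3f, Eif3k, Eif4a1, Eif4e, Eif4g1, Eif4h, Eif5a and Eif5a2. None of the 47 had the Atf4 and C/EBP element TGATGCAA on either strand, which occurred in 0.895% of all 32851 starts. The 13 members without an entry were not searched: Eef1d, Eef1g, Eif1a, Eif2b3, Eif3e, Eif3h, Eif3i, Eif3j2, Eif4e3, Eif4ebp1, Eif4ebp3, Eif4g2 and Eif6. Among members called higher that had an entry, the E-box was found in 2 of 9 (22.2%) for the 24h average of both lines. For the average of Null against WT it was found in 3 of 8 (37.5%). Whether the E-box goes with a call was not tested. The next windows show the E-box, in capitals, in 5 members that were called in different EpiSC comparisons. Its first base lies 43, 44, 189, 64 and 74 bases before a start in the order given.
Eef2 at chr10:81176576-81176605, plus strand: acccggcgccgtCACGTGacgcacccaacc
Eif3k at chr7:28981915-28981944, minus strand: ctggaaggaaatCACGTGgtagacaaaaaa
Eif4a1 at chr11:69672595-69672624, minus strand: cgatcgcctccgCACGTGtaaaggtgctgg
Eif4e at chr3:138527192-138527221, plus strand: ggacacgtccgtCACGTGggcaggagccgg
Eif5a at chr11:69921443-69921472, minus strand: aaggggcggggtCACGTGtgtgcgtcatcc

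The first comparison asked how the factor genes responded to 24h of Chiron and Fgf8. In WT EpiSCs, 7 of the 55 tested members rose and 1 fell, and in Null EpiSCs 6 rose and 1 fell (edgeR's quasi-likelihood test, Benjamini-Hochberg adjusted p below 0.05 over all 9703 tested genes). The share of members that rose was 12.7% in WT, against 8.19% of all tested genes, and 10.9% in Null, against 9.18%. The share that fell was 1.82% in both lines, against 8.63% of all tested genes in WT and 9.44% in Null. The members' shares of rising genes were thus close to those of all genes. The median log2 difference of the members was 0.13 in WT and 0.10 in Null, beside -0.01 and 0.01 for all tested genes. Over all tested genes 795 rose and 837 fell in WT and 891 and 916 in Null; with libraries scaled by their totals alone these were 623 and 1058, and 719 and 1115. Averaged over both lines, a contrast added after the data were seen, 12 members rose (21.8%, against 13.8% of all tested genes) and 1 fell (against 14.3%). For that average, 1338 genes rose and 1383 fell, or 1063 and 1796 with library totals alone. With library totals alone 34 members in WT and 31 in Null had a positive difference, beside 40 and 38 with TMM scaling, and the members' median was 0.06 and 0.03, beside -0.08 and -0.06 for all tested genes.

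**Figure D1:**
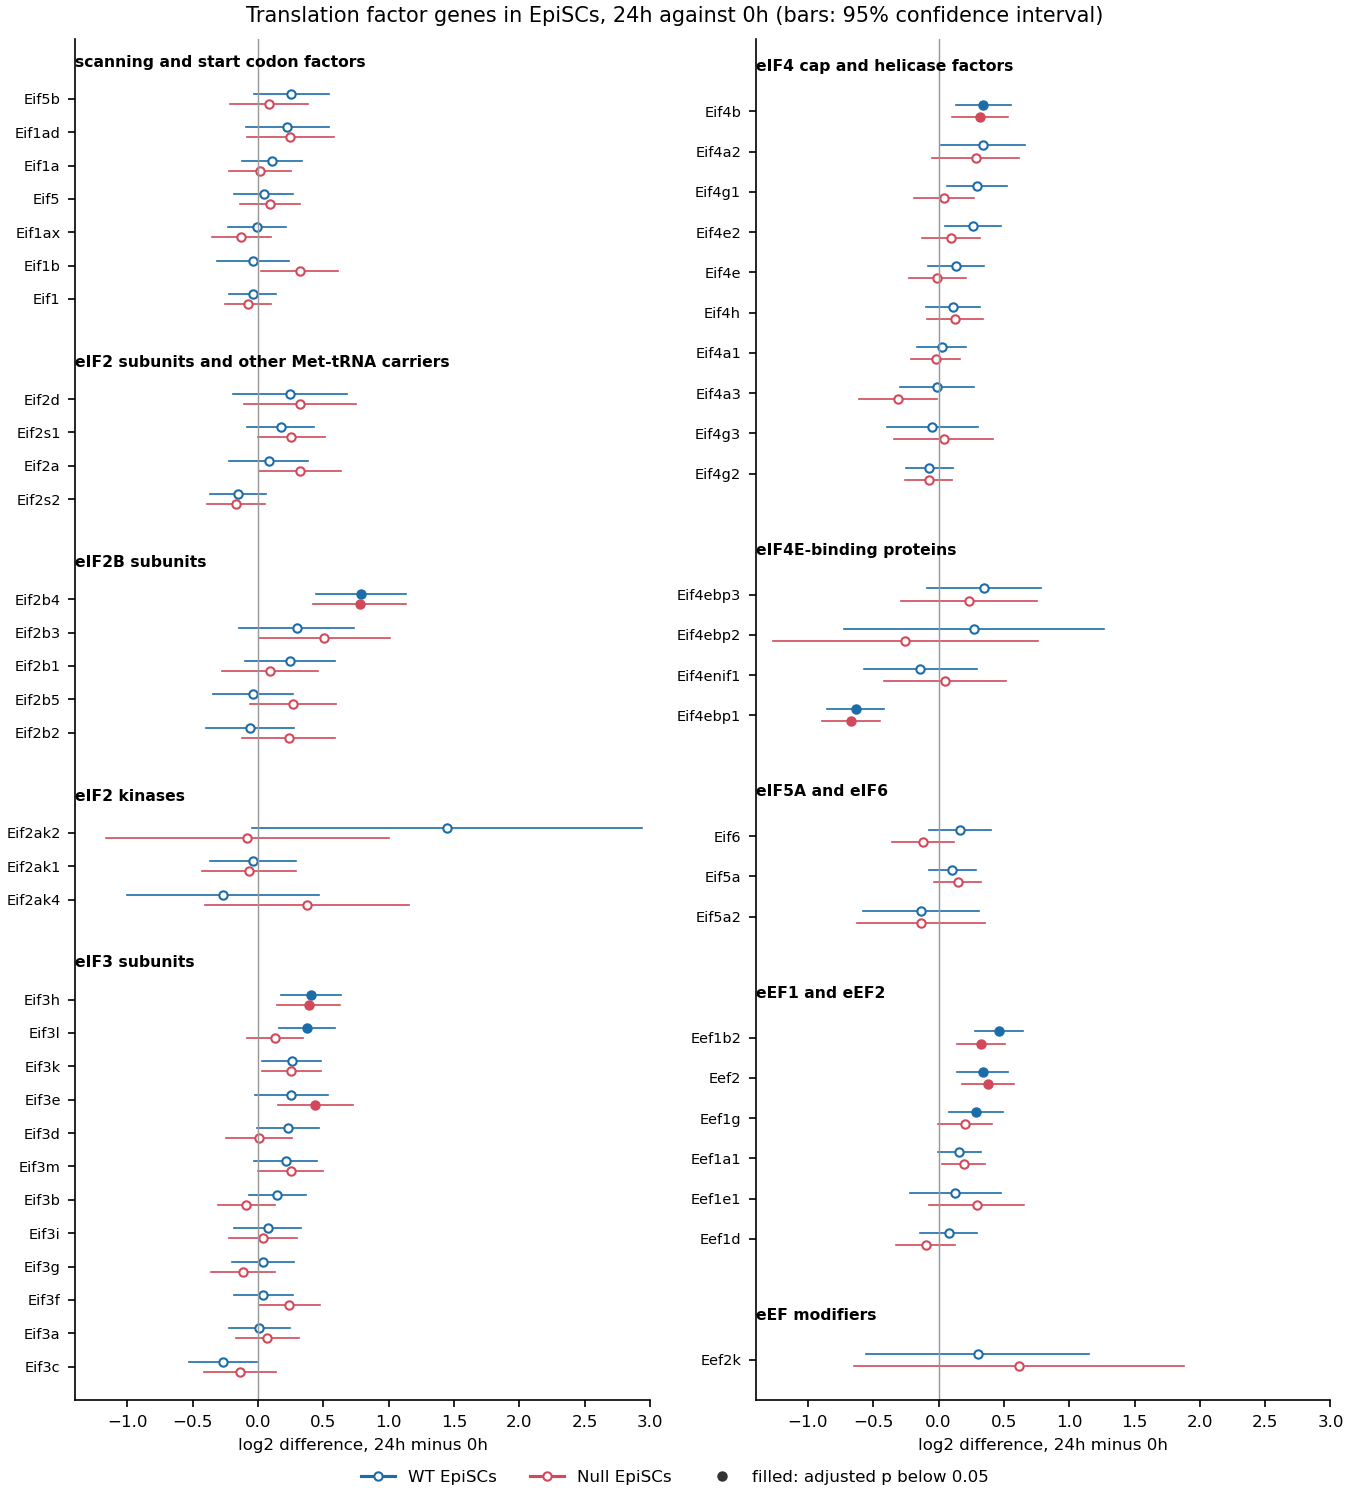
Log2 difference at 24h minus 0h of each tested member, grouped by role, in WT (blue) and Null (red) EpiSCs; points are the fitted differences, bars their 95% confidence intervals, and filled points are called at an adjusted p below 0.05. Eif4ebp1 is the 1 member called lower in both lines, and Eif2b4 has the highest called difference, 0.79 in WT and 0.78 in Null.

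Eif4ebp1, the eIF4E-binding protein gene with the most tags in these cells, fell in both lines. The gene lies at chr8:27260327-27275656 (GRCm38). WT libraries held 685 and 613 CPM at 0h and 439 and 395 CPM at 24h; Null libraries held 728 and 786 CPM at 0h and 435 and 518 CPM at 24h. Every 24h library was below every 0h library. The log2 difference was -0.63 ± 0.11 (SE, adjusted p = 3.26e-05) in WT and -0.67 ± 0.11 (adjusted p = 1.44e-05) in Null, 0.644 and 0.628 times the 0h level. The call held in all 13 alternatives tried for each line. Its relatives were scarce: Eif4ebp2 stayed between 3.75 and 10.8 CPM in EpiSC libraries, Eif4ebp3, another binding protein, between 20.8 and 37.6 CPM, and Eif4enif1, which carries eIF4E into the nucleus, between 26.8 and 40.4 CPM. None of the 3 was called at 24h in either line. The mRNA of Eif4e, the cap-binding protein itself, averaged 334 ± 17.3 CPM (SD, n = 2) in WT at 0h and 367 ± 30.3 CPM at 24h, with a log2 difference of 0.13 ± 0.11 that was not called. At 0h WT cells thus held more Eif4ebp1 than Eif4e tags, 649 ± 51.2 against 334 CPM, and at 24h the 2 levels were 417 ± 31.2 and 367 CPM.

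Of the 5 subunits of eIF2B, the exchange factor of eIF2, 1 rose in each line. Eif2b4, which encodes its delta subunit (chr5:31187558-31193139), had 51.4 and 39.9 CPM in WT at 0h and 75.2 and 84.2 CPM at 24h. Null cells had 53.1 and 52.4 CPM at 0h and 89.2 and 92.3 CPM at 24h. The lowest 24h library exceeded the highest 0h library. The log2 difference was 0.79 ± 0.17 (adjusted p = 0.000793) in WT and 0.78 ± 0.17 (adjusted p = 0.00118) in Null, and both calls held in all 13 alternatives. The other eIF2B genes, Eif2b1, Eif2b2, Eif2b3 and Eif2b5, were not called; the summed level of all 5 was 287 to 291 CPM in WT at 0h, 316 to 362 CPM in WT at 24h, 279 to 293 CPM in Null at 0h and 360 to 371 CPM in Null at 24h.

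Among the elongation factors, 3 of 6 tested genes rose in WT and 2 in Null. Eef1b2 (chr1:63176831-63180486) went from 2933 and 3282 CPM to 4083 and 4478 CPM in WT and from 3194 and 3603 CPM to 4264 and 4240 CPM in Null. The log2 difference was 0.46 ± 0.09 (adjusted p = 0.000253) in WT and 0.32 ± 0.09 (adjusted p = 0.00899) in Null. Eef2, the translocase (chr10:81176631-81182509), went from 1473 and 1373 CPM to 1985 and 1604 CPM in WT and from 1287 and 1210 CPM to 1634 and 1615 CPM in Null, with log2 differences of 0.34 ± 0.10 (adjusted p = 0.0134) and 0.38 ± 0.10 (adjusted p = 0.00523). Eef1g, a subunit of the eEF1B exchange complex, had 1567 and 1316 CPM in WT at 0h and 1864 and 1648 CPM at 24h and was called in WT (log2 difference 0.29 ± 0.10, adjusted p = 0.0464); in Null its difference was 0.20. For each of these 3 genes the 24h libraries lay above the 0h libraries of the same line. Eef1a1 had 9643 and 9724 CPM at 0h and 10684 and 10945 CPM at 24h in WT, and its log2 difference was called for the average of both lines (0.18 ± 0.06, adjusted p = 0.0187). Eef1d, the eEF1B delta subunit, and Eef1e1, a scaffold protein of the aminoacyl-tRNA synthetase complex, were not called. Eef2k, the kinase that inactivates eEF2, was at 1.81 to 13.6 CPM in EpiSC libraries and was not called.

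Of 12 tested eIF3 subunit genes, 2 rose in WT (Eif3h and Eif3l) and 2 in Null (Eif3h and Eif3e). Eif3h had 227 and 260 CPM in WT at 0h and 333 and 311 CPM at 24h, and 238 and 217 CPM in Null at 0h and 293 and 303 CPM at 24h. The log2 difference of Eif3h was 0.41 ± 0.11 (adjusted p = 0.00968) in WT and 0.39 ± 0.12 (adjusted p = 0.0182) in Null, without overlap between the times. Eif3l rose in WT from 343 and 322 CPM to 422 and 443 CPM (0.38 ± 0.11, adjusted p = 0.0107), whereas Null cells had 432 and 427 CPM at 0h and 499 and 439 CPM at 24h. Eif3e rose in Null from 143 and 152 CPM to 188 and 211 CPM (0.44 ± 0.14, adjusted p = 0.0261), and WT cells had 134 and 153 CPM at 0h and 148 and 198 CPM at 24h, where the times overlapped. Eif3h, Eif3l and Eif3e encode subunits outside the conserved core that holds Eif3a and Eif3b. Averaged over both lines Eif3h, Eif3e, Eif3l, Eif3k and Eif3m were called higher, with log2 differences of 0.40, 0.35, 0.25, 0.26 and 0.23.

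Among the 10 tested genes of the cap complex and its helicase, Eif4b alone was called in each line. Eif4b, which stimulates the helicase eIF4A, went from 505 and 449 CPM to 644 and 563 CPM in WT and from 518 and 483 CPM to 636 and 611 CPM in Null. Its log2 difference was 0.34 ± 0.10 (adjusted p = 0.0182) and 0.32 ± 0.11 (adjusted p = 0.0313), and every 24h library was above every 0h library. Eif4a2, the minor eIF4A helicase, was called higher for the average of both lines alone (0.31 ± 0.11, adjusted p = 0.037). Eif4a1, Eif4g2, Eif4g1, Eif4g3, Eif4h, Eif4e2 and the exon junction helicase Eif4a3 were not called at 24h. None of the 7 scanning and start codon genes was called, Eif1 with log2 differences of -0.04 in WT and -0.08 in Null being the most abundant of them at 1777 to 2179 CPM. The eIF2 subunits Eif2s1 and Eif2s2, the carriers Eif2a and Eif2d, the 3 tested eIF2 kinases and Eif5a, Eif5a2 and Eif6 were not called either.

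**Figure D2:**
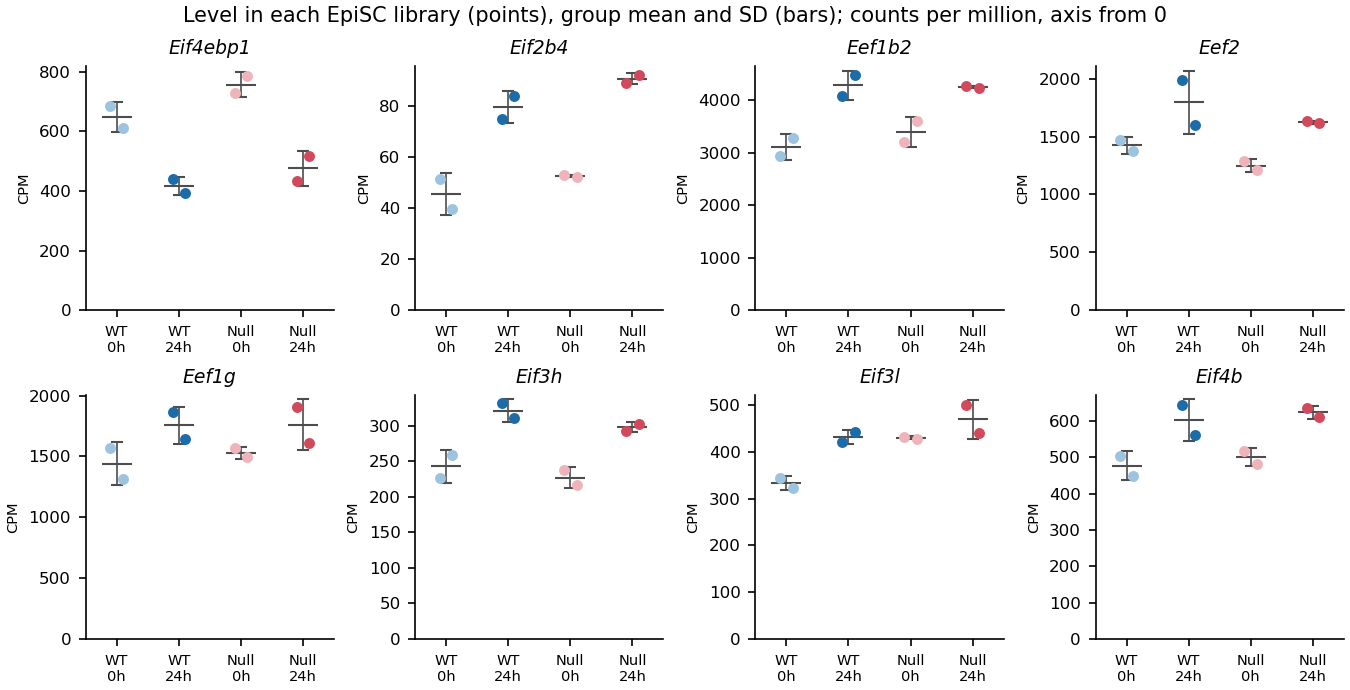
CPM of 8 members called at 24h in at least 1 line, 1 point per EpiSC library, with group means and SD as bars and axes from 0. Eif4ebp1 is lower at 24h in both lines, at 395 to 518 CPM against 613 to 786 CPM at 0h, and Eif2b4 is higher, at 75.2 to 92.3 CPM against 39.9 to 53.1 CPM.

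Leaving out 1 library moved many adjusted p-values past the threshold, while most differences kept their size. In WT 5 of the 8 called members lost the call without at least 1 library, at adjusted p between 0.0713 and 0.448, and the difference of 2 of the 8 moved by more than 1.5 times. Eef2 fell from 0.34 to 0.19 on the log2 scale without WT 24h replicate 1 (adjusted p = 0.308), and Eef1g from 0.29 to 0.17 without WT 0h replicate 2 (adjusted p = 0.448). Eif3l, Eif4b and Eif3h also lost the WT call, with differences of 0.33 to 0.43, 0.25 to 0.45 and 0.31 to 0.51 over the 4 libraries left out in turn. In Null cells 5 of 7 members lost the call without at least 1 library, at adjusted p between 0.0511 and 0.208, and no difference moved by more than 1.5 times: Eef1b2 stayed at 0.24 to 0.42, Eef2 at 0.34 to 0.43, Eif3e at 0.36 to 0.52, Eif3h at 0.34 to 0.46 and Eif4b at 0.28 to 0.37. Without Null 24h replicate 1 the average of both lines had 8 called members in place of 13. In that average Eef1a1, Eef1g, Eif3k, Eif3l, Eif3m and Eif4a2 each lost the call without at least 1 library, at adjusted p between 0.0518 and 0.189, and no difference moved by more than 1.5 times. Library totals alone removed Eef1g, Eef2 and Eif4b in WT and Eif3e, Eif3h and Eif4b in Null.

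The response of Null minus that of WT cells was tested as an interaction, which called 0 of the 55 members, against 0.567% of all tested genes. DESeq2 also called 0, and 0 members had an unadjusted p below 0.05, against 10.2% of all tested genes. For Eif4ebp1 the difference between the lines was -0.04 on the log2 scale (95% interval -0.34 to 0.27), for Eif2b4 -0.01 (-0.50 to 0.48), for Eif3l -0.25 (-0.55 to 0.06) and for Eif3e 0.19 (-0.22 to 0.59). Calls made in a single line, such as Eif3l and Eif3e, were therefore not shown to differ between the lines. At 24h the streak and tailbud markers, led by T, had risen as well: 9 of 9 tested in WT and 8 of 9 in Null. Of all tested genes 8.19% rose and 8.63% fell in WT, and 9.18% rose and 9.44% fell in Null. The summed levels of these markers went from 101 to 110 CPM to 952 to 1384 CPM in WT. In Null they went from 38.9 to 51.8 CPM to 1391 to 1403 CPM. With 0h levels this low, some of these markers may have passed the low-count filter only through 24h libraries, where they are high. The list includes Cdx1, Cdx2 and Cdx4. Of 8 tested epiblast markers 6 fell and 1 rose in each line. The summed fibroblast markers went from 247 to 299 CPM to 138 to 179 CPM in WT and from 124 to 136 CPM to 106 to 125 CPM in Null. Of 6 tested fibroblast markers 1, the collagen gene Col3a1, fell in WT, and in Null Col3a1 fell and Col1a2 rose. The part of these shifts in the members' changes was not tested.

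Genes around the factors were counted from lists drawn up with earlier results of these data known. Of 18 tested targets of the integrated stress response, 2 rose and 6 fell in WT, and 2 rose and 8 fell in Null, with median log2 differences of -0.17 and -0.38. The shares of all tested genes were 8.19% rising and 8.63% falling in WT, and 9.18% and 9.44% in Null. Atf4, the transcription factor whose translation rises when eIF2 is phosphorylated, had group means of 697 CPM at 0h and 520 CPM at 24h in WT (log2 difference -0.42 ± 0.10, adjusted p = 0.00199) and of 647 and 458 CPM in Null (-0.50 ± 0.10, adjusted p = 0.000359). Trib3, a pseudokinase induced by Atf4, fell from 45.4 to 22.0 CPM in WT (-1.04 ± 0.21, adjusted p = 0.00048) and from 32.7 to 16.2 CPM in Null (-1.04 ± 0.26, adjusted p = 0.00358). Mthfd2, a mitochondrial folate enzyme, fell from 126 to 74.5 CPM in WT and from 126 to 69.0 CPM in Null, and Slc3a2, an amino acid transporter chain, fell from 694 to 527 CPM and from 590 to 422 CPM. The genes that rose were the lipoprotein receptor Vldlr (log2 difference 1.38 in WT and 1.27 in Null) and Ddit4, an inhibitor of mTOR signalling (0.72 and 1.45). Asns, asparagine synthetase, with log2 differences of -0.05 in WT and 0.14 in Null, and the stress factor Ddit3, with 0.51 and 0.48, were not called. The summed markers of handling, immediate early and heat shock genes, ranged from 304 to 356 CPM at 24h and from 325 to 391 CPM at 0h.

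Of 40 tested partners and regulators of the factors, 2 rose and 1 fell in WT, and 4 rose and 2 fell in Null. These counts were close to or below the shares of all tested genes. Those shares were 8.19% rising and 8.63% falling in WT, and 9.18% and 9.44% in Null. Pabpc1, the poly(A)-binding protein that joins eIF4G at the cap, rose from 887 to 1312 CPM in WT (log2 difference 0.57 ± 0.09, adjusted p = 2.82e-05) and from 955 to 1350 CPM in Null (0.50 ± 0.10, adjusted p = 0.000165). Mtor fell from 35.7 to 19.5 CPM in WT (-0.85 ± 0.23, adjusted p = 0.00854) and from 36.6 to 23.3 CPM in Null (-0.69 ± 0.25, adjusted p = 0.0457). Mcts1, which helps recycle and restart ribosomes, rose in WT from 114 to 152 CPM. In Null cells Tpt1, a small protein that has been linked to eEF1A, rose from 2357 to 2972 CPM, as did the mTOR inhibitor Tsc2, from 124 to 168 CPM, and the cap-binding subunit Ncbp2, from 85.2 to 117 CPM, while the termination factor gene Gspt2 fell by 0.83 on the log2 scale. Median log2 differences of the partners were 0.03 in WT and -0.01 in Null.

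The second comparison set Null against WT EpiSCs at each time; it shares its samples with the comparison of times. At 0h 5 of 55 members were higher in Null and 0 lower, or 9.09% against 3.32% of all tested genes called higher and 3.35% called lower. At 24h 2 were higher and 0 lower, or 3.64% against 3.70% and 4.35%. Averaged over both times, a contrast added after the data were seen, 9 were higher (16.4%, against 6.37% of all tested genes) and 0 lower (against 7.62%), with a median log2 difference of 0.10 beside -0.01 for all tested genes. DESeq2 also called 0 members lower in these 3 contrasts. At an unadjusted p below 0.05, 0 members were lower at 0h, 0 at 24h and 3 on average (Eef2, Eef2k and Eif4ebp3). In either direction 11, 6 and 17 members were below 0.05, against 20.2%, 21.3% and 26.96% of all tested genes. Eef2k passed the filter only through WT libraries. With library totals alone 34, 32 and 36 members had a positive difference, beside 37, 40 and 44 with TMM scaling. Over all tested genes 322 were higher and 325 lower at 0h, or 262 and 427 with library totals alone. At 24h the numbers were 359 and 422, or 285 and 522, and on average 618 and 739, or 453 and 967.

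Eif5a was higher in Null cells at both times. The gene lies at chr11:69916712-69921958, and 1 of its E-boxes is printed with the promoters. WT libraries held 2889 and 2622 CPM at 0h and 2876 and 3059 CPM at 24h; Null libraries held 3704 and 3417 CPM at 0h and 4092 and 3790 CPM at 24h. All 4 Null libraries exceeded all 4 WT libraries. The log2 difference was 0.37 ± 0.09 at 0h (adjusted p = 0.00776), 0.41 ± 0.09 at 24h (adjusted p = 0.00234) and 0.39 ± 0.06 on average (adjusted p = 3.25e-05), the last held in all 16 alternatives. Dhps, the enzyme that starts the hypusine modification of eIF5A, was the 1 partner gene called for the average, at 29.2 CPM in Null and 19.2 CPM in WT (0.56 ± 0.18, adjusted p = 0.0334).

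Eif3b, a scaffold subunit of eIF3 (chr5:140419305-140443358), had 437 and 446 CPM in WT and 670 and 556 CPM in Null at 0h. At 24h it had 473 and 506 CPM in WT and 612 and 541 CPM in Null. The 4 Null libraries lay above the 4 WT libraries, with a log2 difference of 0.48 ± 0.11 at 0h (adjusted p = 0.00444) and 0.36 ± 0.08 on average (adjusted p = 0.00104). Eif4e had 322 and 346 CPM in WT and 427 and 437 CPM in Null at 0h, and 346 and 388 CPM in WT and 423 and 436 CPM in Null at 24h, again without overlap (0.37 ± 0.11 at 0h, adjusted p = 0.0301; 0.30 ± 0.08 on average, adjusted p = 0.00549). Eif2s1, the alpha subunit of eIF2 on which the kinases act, had 345 and 400 CPM in WT and 442 and 492 CPM in Null at 0h. At 24h it had 347 and 500 CPM in WT and 545 and 568 CPM in Null and was called (0.41 ± 0.12, adjusted p = 0.0391), and the average was 0.37 ± 0.09 (adjusted p = 0.005). In WT 24h replicate 2 Eif2s1 lay above both Null libraries at 0h. The average calls of Eif3b, Eif4e and Eif2s1 held in all 16 alternatives.

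**Figure D3:**
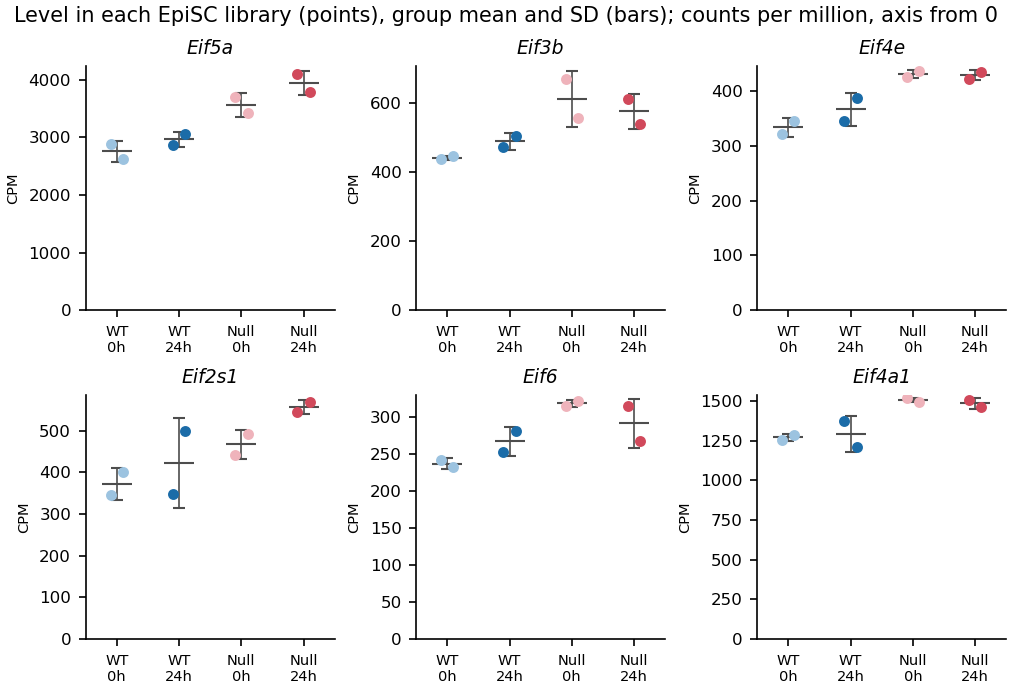
CPM of 6 members called higher in Null than in WT EpiSCs, 1 point per library, with group means and SD as bars and axes from 0. The 4 Null libraries lie above the 4 WT libraries for Eif5a, Eif3b, Eif4e and Eif4a1, and overlap them for Eif2s1 and Eif6.

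Eif6, which keeps the large ribosomal subunit from joining too early, had 242 and 232 CPM in WT and 315 and 322 CPM in Null at 0h (log2 difference 0.42 ± 0.12, adjusted p = 0.0218). At 24h it had 253 and 281 CPM in WT and 315 and 268 CPM in Null, which overlapped. Eif3l was called at 0h (0.37 ± 0.11, adjusted p = 0.0301). Eif4a1, the main eIF4A helicase, was called on average (0.22 ± 0.07, adjusted p = 0.0192), as were Eif6, Eif3l, Eif2d (0.46 ± 0.15, adjusted p = 0.034) and Eif2ak2. Eif2ak2, the kinase activated by double-stranded RNA, stood close to the floor: 2.14 and 0.569 CPM in WT at 0h, 3.13 and 5.10 CPM in WT at 24h, and 4.46 to 8.69 CPM in the Null libraries. Its counts were 4, 1, 9 and 8 in the WT libraries and 10, 8, 9 and 13 in the Null libraries. It passed the low-count filter, at 6.10 CPM, only through Null libraries, the group where it is high, so its call (adjusted p = 0.0248) supports nothing about the members, and 8 of 54 tested members were called under the stricter filter that leaves it out. Eif2d, which can deliver tRNA independently of eIF2, lost its call in 10 of 16.

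With 1 library fewer, 0 to 2 members were called at 0h, although no difference moved by more than 1.5 times. Without Null 0h replicate 1 the count was 0. Over the 4 libraries left out in turn Eif6 stayed at 0.40 to 0.46 on the log2 scale, Eif4e at 0.32 to 0.43, Eif3l at 0.33 to 0.42, Eif3b at 0.34 to 0.60 and Eif5a at 0.30 to 0.44. At 24h Eif5a stayed at 0.35 to 0.46 and lost the call without Null 24h replicate 1 (adjusted p = 0.0929). The difference of Eif2s1 at 24h depended on the WT libraries: it went from 0.41 to 0.15 without WT 24h replicate 1 (adjusted p = 0.603) and to 0.68 without WT 24h replicate 2. In the average over both times Eif2s1 went from 0.37 to 0.24 without WT 24h replicate 1, still called. That average had 5 members called without WT 0h replicate 2 or without Null 0h replicate 2. Eif6, Eif3l, Eif4a1, Eif2d and Eif2ak2 each lost that call without at least 1 library, at adjusted p between 0.0526 and 0.157, and none of these 5 differences moved by more than 1.5 times.

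The lines also differed in markers of cell identity. Summed epiblast markers were 2592 to 3007 CPM in Null and 1271 to 1360 CPM in WT at 0h, and 2544 to 2616 CPM against 484 to 494 CPM at 24h, with 6 of 8 tested called higher at 0h, and 4 higher and 1 lower at 24h. Summed endoderm markers were 141 to 206 CPM in Null and 110 to 118 CPM in WT at 0h, and 114 to 174 CPM against 45.6 to 54.2 CPM at 24h. Of 7 tested endoderm markers 3 were higher in Null at 0h (Cdh1, Epcam and Krt8) and 2 lower (Foxa2 and Sox17), and 4 were higher and 0 lower at 24h. Summed fibroblast markers were 124 to 136 CPM in Null and 247 to 299 CPM in WT at 0h, where 1 of 6 tested, Col3a1, was lower. The part of these differences in the members' levels was not tested. Of the 18 stress response targets 0 were higher and 1, the cystine transporter Slc7a11, was lower in Null at 0h, and 0 were higher and 4 lower at 24h, and Eif4ebp1 was not called between the lines (average 0.20 ± 0.08, adjusted p = 0.0704).

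The third set of comparisons asked whether the tailbuds of Cdx1-4 and Triple embryos differed from WT. No member was called in Triple against WT, Cdx1-4 against WT or Triple against Cdx1-4, against 2.90%, 0.133% and 2.02% of all 6003 tested genes, and DESeq2 called 0 members in each. At an unadjusted p below 0.05 there were 2, 3 and 3 members, beside 12.0%, 7.63% and 10.9% of all tested genes. The log2 differences of 50 of 51 members lay within 0.5 of 0 in Triple against WT, with a median of -0.04, and the median standard error was 0.15. In that comparison 36 members had a negative and 15 a positive difference, while 49.6% of all tested genes were positive. In Cdx1-4 against WT 26 were negative and 25 positive. The members were not tested as a set. Of the genes called in EpiSCs, Eif5a was -0.10 in Triple minus WT (95% interval -0.31 to 0.10), Eif3b -0.22 (-0.45 to 0.01), Eif4ebp1 -0.04 (-0.31 to 0.23), Eef1b2 -0.04 (-0.24 to 0.15) and Eef2 -0.09 (-0.29 to 0.11). The summed streak and tailbud markers were 1348 to 1405 CPM in WT, 971 to 1131 CPM in Cdx1-4 and 460 to 554 CPM in Triple. Of these markers 8 of 10 tested were lower in Triple, and of the 9 tested endoderm markers 2 were higher. Of all 6003 tested genes 77 were lower in Triple and 97 higher. The streak and tailbud list holds Cdx1, Cdx2 and Cdx4, from the gene family named in the Cdx1-4 label. Its sums and counts are therefore not independent of the genotype. Some of its markers, such as Cdx4, may also have passed the low-count filter only through WT libraries, where they are high. The part of these marker differences in the members' levels was not tested. The 2 tables were normalised separately, and whether the EpiSC lines and the tailbuds differed in these effects was not tested.

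**Figure D4:**
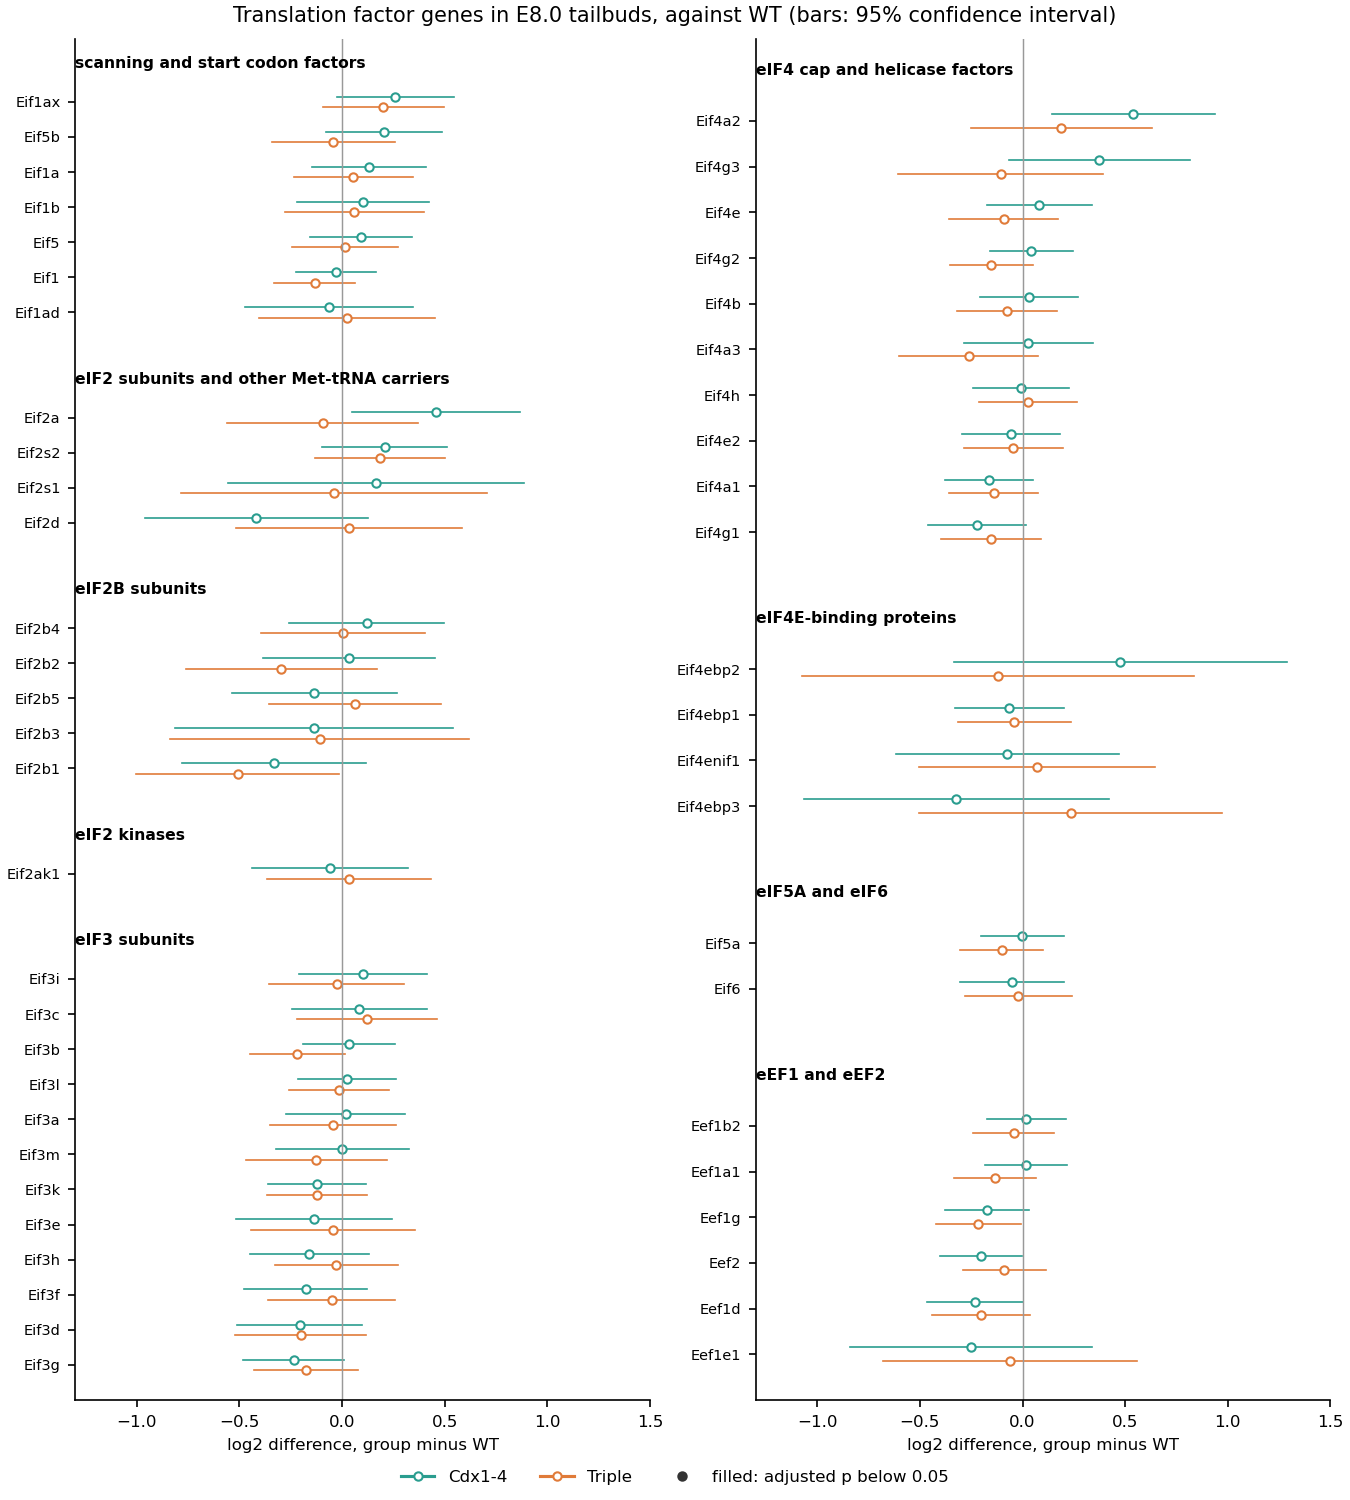
Log2 difference from WT of each tested member in Cdx1-4 (green) and Triple (orange) tailbuds at E8.0, grouped by role; points are fitted differences and bars 95% confidence intervals. No point is filled, since no member was called, and Eif4a2 in Cdx1-4 has the highest difference, 0.54.

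In tailbuds Eef1a1 was the most abundant member, with 5760, 7771 and 7667 CPM in WT, 7212, 6769 and 7455 CPM in Cdx1-4 and 6959, 6488 and 5865 CPM in Triple. WT replicate blue-1 was the lowest of all 9 libraries, so the groups overlapped. Eif5a had 3558, 3880 and 3889 CPM in WT, 4468, 3342 and 3492 CPM in Cdx1-4 and 3365, 3794 and 3394 CPM in Triple, where the groups also overlapped. Eif4ebp1 stood at 293 to 361 CPM in WT, 283 to 329 CPM in Cdx1-4 and 283 to 345 CPM in Triple. The top genes of the other roles in tailbuds were Eif1 at 1928 to 2262 CPM, Eif4g2 at 2239 to 2981 CPM, Eif3b at 703 to 977 CPM, Eif2s1 at 359 to 704 CPM, Eif2b4 at 73.5 to 134 CPM, the haem-regulated kinase Eif2ak1 at 81.3 to 121 CPM and Eef2k at 1.38 to 15.2 CPM. In EpiSCs the most abundant eIF2B gene was Eif2b5, at 78.4 to 109 CPM, and Eif2ak1 stood at 57.8 to 77.1 CPM.

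Genes with near copies were followed as the share of each paralog in its set. Reads of Eef1a1, Eif4a1 and Eif5a may include those of processed pseudogenes, and whether reads were assigned by strand is not given in the sources used here. Eif4e made up 45.8% and 46.2% of the Eif4e and Eif4e2 counts in WT EpiSCs at 0h and 42.2% and 45.4% at 24h, and 48.2% to 52.6% in Null cells, so the Null libraries lay above the WT libraries. Eif4e2 encodes the cap-binding relative that represses translation. The share of Eif4a2 among Eif4a1 and Eif4a2 counts was 5.07% to 7.72% in EpiSCs. In tailbuds it was 4.95% to 6.51% in WT, 9.07% to 9.68% in Cdx1-4 and 7.21% to 7.63% in Triple, 3 ranges that did not overlap. The tailbud levels of Eif4a2 were 50.1, 63.2 and 70.8 CPM in WT, 96.8, 91.5 and 88.1 CPM in Cdx1-4 and 70.8, 78.0 and 65.3 CPM in Triple, and its log2 difference in Cdx1-4 against WT was 0.54 ± 0.20 with an adjusted p of 0.435 (edgeR). An exact permutation test of 3 libraries against 3 cannot go below 0.1, so these shares are given as a description.

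**Figure D5:**
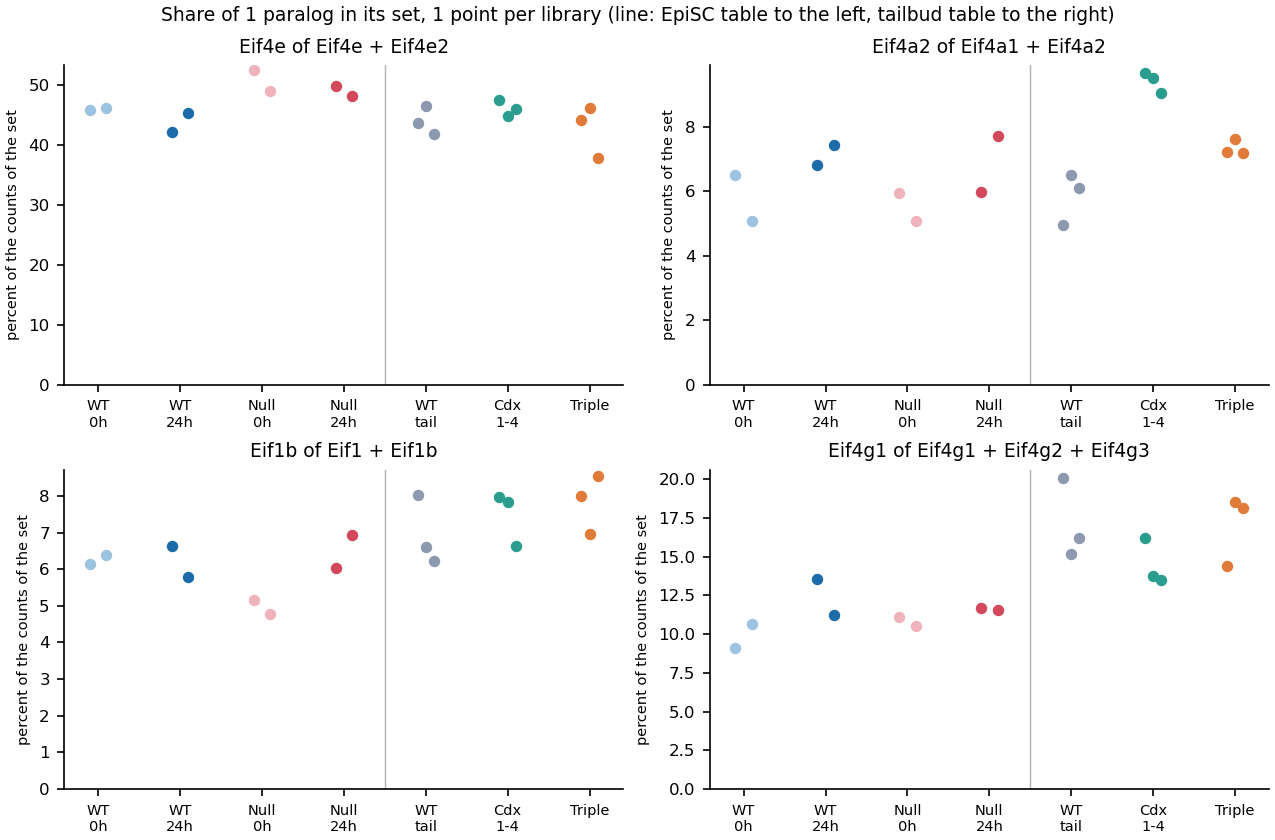
Share of 1 paralog in the counts of its set, in percent, 1 point per library, with the EpiSC groups to the left of the line and the tailbud groups to the right and axes from 0. Eif4e takes 48.2% to 52.6% in Null EpiSCs and 42.2% to 46.2% in WT, and Eif4a2 takes 9.07% to 9.68% in Cdx1-4 tailbuds and 4.95% to 6.51% in WT.

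Eif1 took 93.1% to 95.2% of the Eif1 and Eif1b counts in EpiSCs and 91.5% to 93.8% in tailbuds, and Eif1ax 55.3% to 60.4% of the Eif1a and Eif1ax counts in EpiSCs and 51.0% to 62.2% in tailbuds. In the eIF4G set Eif4g2 held 84.0% to 88.2% in EpiSCs and 78.2% to 84.3% in tailbuds, the full-length scaffold Eif4g1 9.10% to 13.6% and 13.5% to 20.1%, and Eif4g3 1.73% to 2.69% and 1.24% to 2.36%. Eif5a held 98.7% to 99.4% against Eif5a2 in EpiSCs, and Eef1a1 at least 99.98% against Eef1a2, the muscle and neuron form. Eif4ebp1 held 98.3% to 99.5% against Eif4ebp2 in EpiSCs but 90.9% to 98.0% in tailbuds. Among the eIF2 kinases Eif2ak1 held 70.4% to 87.6% in EpiSCs and 82.2% to 97.4% in tailbuds, with Eif2ak4, the amino acid sensor, at 9.35% to 17.6% and 2.56% to 15.1%, and Eif2ak3, the kinase of the endoplasmic reticulum, at most 3.33% and 1.37%. In all tailbud libraries together Eif4ebp2 had 94 counts, Eif2ak4 45 and Eif2ak3 1. The tailbud shares that rest on these genes thus carry a large counting error. Eif3j1 and Eif3j2, which are near copies of each other, had 1 and 3 counts in all EpiSC libraries together.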

How the data were processed

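CEL-seq libraries of 8 EpiSC and 9 tailbud samples, each begun with 10 ng RNA, were used. The authors deposited whole-number counts per gene, in mm10 per the submitters' processing notes; the aligner, counter and handling of multiple hits are not given in the sources used here. Tailbud columns name their group and a colour (blue, green) but not a sample. The 8 spike-in entries per table held 2 and 1 reads and were left out. Each table was fitted whole in R 4.3.3 with edgeR 4.0.16: filterByExpr, TMM scaling, 1 mean per group, robust quasi-likelihood test, Benjamini-Hochberg adjustment over all tested genes, calls below 0.05. Residual degrees of freedom were 4 and 6. SE come from the F statistic, and CPM from TMM-scaled totals. Every EpiSC library was deeper than every tailbud library. DESeq2 1.42.0 was an alternative. Scripts were tested on simulated data. Positions come from the GRCm38 gene table, where all 60 members matched by symbol. For Eif3j2 the matched entry lies on chromosome 18, whereas the deposited gene name gives chromosome 2, and its position was not printed. Figures used matplotlib 3.10.9. Region lists in mm9 were not used here.

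The members, lists and alternatives were chosen with earlier results of these data known. Named genes were all members called per comparison (up to 12, by p), all members of the paralog sets, the most abundant member of each role per table, and of other lists up to 5 called genes plus Atf4, Ddit3, Trib3 and Asns. The markers and lists covered epiblast, tailbud and streak, fibroblast, endoderm, blood, allantois, decidua and handling genes. The contrasts averaged over lines or times, and colour as a term for tailbuds, were added after the data were seen.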

Additional observations from a re-analysis of the deposited data

How the results depend on the processing

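Counts of called members moved by more than 1.5 times as follows. With library totals alone there were 5 in WT at 24h against 0h (8 in the chosen fit), 4 in Null at 24h against 0h (7), 2 in Null against WT at 0h (5) and 1 at 24h (2). With DESeq2 there were 4, 2 and 1 for the last 3, and 5 for the average of Null against WT (9). Leaving out 1 library gave 5 to 9 in WT at 24h, 3 to 3 in Null at 24h, 0 to 2 in Null against WT at 0h, 0 to 2 at 24h, 8 to 13 for the average at 24h (13) and 5 to 10 for the average of Null against WT; these fits assume that a lone library varies like the other groups. With the replicate number as a block the counts were 8 for Null against WT at 0h and 15 for its average. The block left the other counts within 1.5 times: 10 for WT and 10 for Null at 24h and 17 for their average. The labels do not say that the numbers pair samples, and deviations of same-numbered libraries correlated at 0.0317 to 0.191 over 5863 genes. Beyond the chosen fit the block called Eif4e2 and Eif4g1 in WT and Eef1a1 (adjusted p = 0.0301), Eef1g (0.0489) and Eif2s1 (0.0471) in Null at 24h, and Eef2 and Eef2k as lower in Null on average. The tailbud columns carry no replicate number of the labels; with their column sets (blue-1, blue-2, green-1) as a replicate block 0 members were called in each comparison. In the interaction 0 members were called in all 16 alternatives, and in each of the 3 tailbud comparisons 0 in all 17, colour as a term included. Over all tested genes DESeq2 called fewer than edgeR: 784 against 1632 in WT and 953 against 1807 in Null at 24h, 1568 against 2721 on average, 250 against 647 in Null against WT at 0h, 264 against 781 at 24h, 581 against 1357 on average, 24 against 55 in the interaction, and 91 against 174, 4 against 8 and 55 against 121 in Triple against WT, Cdx1-4 against WT and Triple against Cdx1-4. Without 1 library these counts dropped past 1.5 times to as few as 1034 (WT, without WT 24h replicate 1), 1121 (Null, without Null 0h replicate 1 or Null 24h replicate 1), 326 (Null against WT at 0h, without WT 0h replicate 2), 357 (at 24h, without Null 24h replicate 2), 18 (interaction, without Null 0h replicate 1) and 70 (Triple against Cdx1-4, without Triple replicate blue-1). The interaction had 93 without a count filter, 36 after thinning and 123 with the block; blue libraries alone gave 74 in Triple against WT and 38 in Triple against Cdx1-4. The cause was not tested. No single member reversed. The members' median standard error was 0.152 in Triple against WT and 0.117 in WT at 24h; depth, group size and the spread between libraries all differ between the tables.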

Other observations

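Lmo2, a transcription cofactor of blood and endothelium, was the 1 gene of that list tested in EpiSCs, and it rose from 3.33 to 90.1 CPM at 24h in WT (log2 difference 4.75, adjusted p = 4.12e-15, edgeR) and from 3.12 to 81.3 CPM in Null (4.58, adjusted p = 2.3e-13). Its means at 0h lay below the low-count filter at 6.10 CPM, so it was tested because of the 24h groups, where it is high. Lmo2 therefore says nothing about the rest of that list. In tailbuds 1 of the Cdx1-4 libraries reached 368 CPM of summed blood and endothelium markers, while the WT libraries held 44.8 to 65.7 CPM. Decidua and trophoblast markers summed to 32.7 to 65.9 CPM in Triple tailbuds and 11.0 to 21.1 CPM in WT. Of the 6 listed, 4 had counts in tailbuds and only 1 was tested, which was called higher in Triple (log2 difference 4.94). With WT sums this low, that gene may have passed the low-count filter only through Triple libraries, where it is high. Its call therefore says nothing about the rest of the list. Allantois markers summed to 416 to 703 CPM in Triple and 349 to 477 CPM in WT, but of 4 tested 1 was higher (Ahnak) and 2 were lower (Pitx1 and Tbx4), with a median log2 difference of -0.75. Their part in the members' tailbud levels was not tested.

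In Triple tailbuds Shmt2, a mitochondrial serine enzyme, was the 1 stress response target called against WT, at 403 and 587 CPM (log2 difference -0.55 ± 0.13, adjusted p = 0.00598, edgeR). The summed stress response targets were 2030 to 2210 CPM in Triple, 2090 to 2336 CPM in Cdx1-4 and 2529 to 2554 CPM in WT, so the WT libraries lay above the others.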
